A study of Mus musculus with 12 samples.

Results

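The 10 genes described here encode sensors of microbial molecules and the proteins that present ligands to them or pass on their signal: Tlr2, Tlr4, Tlr5, Tlr9, Cd14, Lbp, Ly96, Myd88, Nod1 and Nod2. They were chosen by symbol, taking for each gene its brightest probe set over the 12 arrays, and each of the 10 matched 1 probe set among the 19572 that carried 1 gene symbol (19505 genes). Affymetrix arrays measured expression in the dissected adrenal medulla, the inner part of the adrenal gland, of 12 male C57Bl6 mice with 1 array per animal. The 4 groups of 3 were germ-free mice given insulin, germ-free mice given saline, normally colonized mice given insulin, and normally colonized mice given saline. Every animal was fasted for 3 h and injected into the peritoneum with regular human insulin at 2 IU/kg or an equal volume of saline, and the medulla was removed after 90 min. Germ-free mice carry no gut microbes, so the study set glands of mice without a resident flora against glands of mice with one, after saline and after insulin. No ages were given, and the animals are numbered 1 to 12. Values are the deposited log2 RMA intensities. A difference of 1 is a doubling, and a level of one probe set cannot be set against that of another. With 3 arrays a group, their number limits precision.

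Toll-like receptors are membrane proteins that bind conserved microbial molecules. Bacterial lipopolysaccharide is carried by the soluble protein Lbp to Cd14, which hands it to the receptor pair of Tlr4 and MD-2, the product of Ly96. Tlr2 senses bacterial lipoproteins, Tlr5 flagellin and Tlr9 unmethylated CpG DNA, and these receptors signal through the adaptor Myd88 to NF-kB. Nod1 and Nod2 are cytosolic sensors of peptidoglycan fragments. In most tissues macrophages are a main source of these proteins, while Lbp is best known as an acute phase protein of the liver.

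The arrays of the 2 colonization states differed in more than these genes. The median of 5222 negative control rows, which measure background, lay at 5.30 to 5.54 in the 6 germ-free arrays and at 4.70 to 4.83 in the 6 colonized arrays, without overlap, so that background and colonization cannot be told apart. All 11 measured chromaffin markers (Th and Dbh, for catecholamine synthesis, among them) and all 8 adrenal cortex markers were above that median on all 12 arrays, so the tissue held both. Intestinal epithelium markers averaged 8.52 ± 0.94 in germ-free saline arrays, against 5.28 ± 0.14 in germ-free insulin, 5.17 ± 0.10 in colonized insulin and 5.22 ± 0.04 in colonized saline arrays (SD, n = 3 each). Arrays of a group correlated at 0.960 to 0.990 over all probe sets, and at 0.985 or more without colonized saline animal 2. In whole tissue, fewer cells of a type and less RNA per cell cannot be told apart.

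Of the 10 sensor genes, 3 were called between germ-free and colonized mice when both treatments were averaged. Limma with Benjamini-Hochberg adjustment over all probe sets and a threshold of 0.05 called Ly96 and Lbp lower in germ-free mice and Tlr5 higher. The signal of Tlr5 was at background on every array. The share of all probe sets called in that comparison was 17.6%, 6.14% higher and 11.5% lower. The median difference of the 10 genes was -0.19, against -0.03 over all probe sets. Of the 10 estimates 9 were below 0, of which limma called 2. Among the uncalled, Tlr9 and Nod2 lay below the negative control median on all 6 germ-free arrays. After saline 1 gene was called, Lbp, where 6.90% of all probe sets were called, and after insulin 2, Ly96 and Tlr5, where 7.77% were. No sensor gene passed the test for insulin against saline in either state. The values by array are drawn for all 10 genes.

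**Figure D1:**
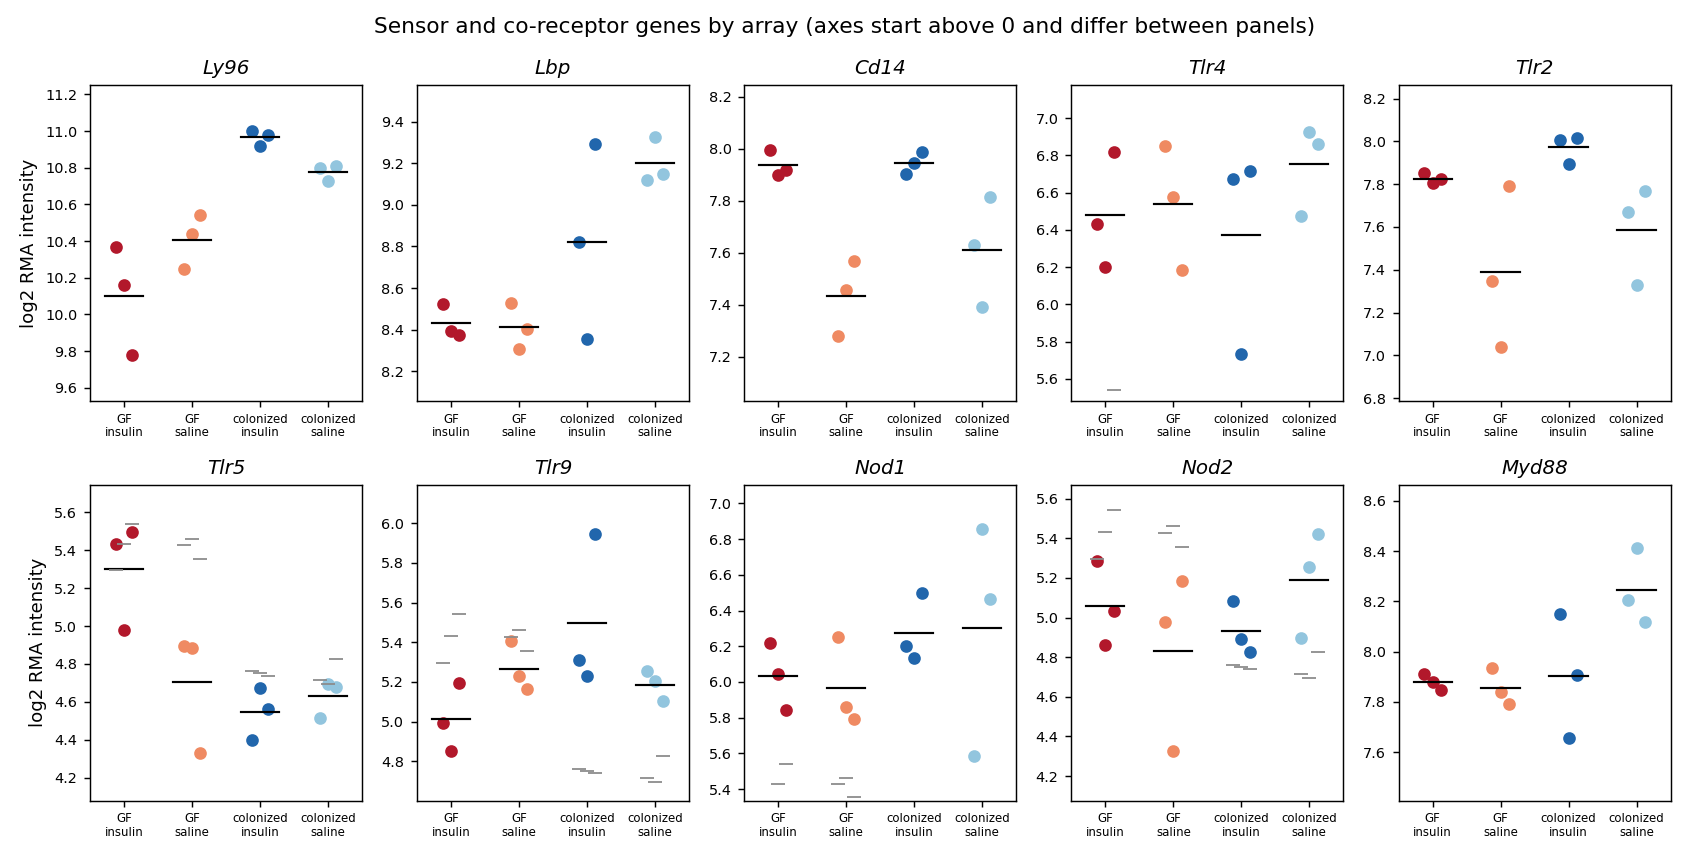
Log2 RMA intensity (vertical axis) of each of the 10 genes on every array, by group (GF, germ-free), with points for animals, black lines for group means of 3, and grey dashes for each array's negative control median where it falls in the panel. The 6 germ-free points of Ly96 lie below the 6 colonized points, and the Tlr5 points lie at or below the grey dashes on all arrays but 1.

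Ly96 (Entrez Gene 17087), whose product MD-2 is the part of the Tlr4 complex that holds lipopolysaccharide, had values of 10.37, 10.16 and 9.78 in germ-free insulin arrays and 10.25, 10.44 and 10.54 in germ-free saline arrays. It had 11.00, 10.92 and 10.98 in colonized insulin arrays and 10.80, 10.73 and 10.81 in colonized saline arrays. All 6 germ-free arrays were thus below all 6 colonized arrays, which held, in either direction, for 8.01% of all probe sets. Within germ-free mice the insulin and saline arrays overlapped, whereas in colonized mice all 3 insulin arrays were above all 3 saline arrays.

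The mean difference of Ly96 was -0.62 ± 0.10 (SE, limma adjusted p = 0.00176), 1.53-fold lower in germ-free mice. After insulin it was -0.86 ± 0.14 (limma adjusted p = 0.005), and after saline -0.37 ± 0.14 (limma adjusted p = 0.13). The mean difference kept its call in each of the 12 fits that left out 1 array, with values of -0.68 to -0.54. Chromaffin markers moved with it after insulin. Their mean lay at 9.71 to 10.20 in germ-free insulin arrays, 10.49 to 10.68 in germ-free saline, 10.66 to 11.19 in colonized insulin and 10.43 to 10.95 in colonized saline arrays. For the mean difference 7 of 11 chromaffin markers were called lower in germ-free mice and 0 higher, against 11.5% and 6.14% of all probe sets. After insulin 8 of 11 were called, all lower, where 7.77% of all probe sets were called. After saline 0 of 11 were called, where 6.90% of all probe sets were, 4 of the 11 estimates were above 0 and their median was -0.07. With the chromaffin marker mean as a covariate, a fit chosen after the data were seen, the mean difference of Ly96 was -0.36 (limma adjusted p = 0.24). With the negative control median as a covariate it was 0.46 (limma adjusted p = 0.965). The call after insulin was lost with adipocyte markers as a covariate (-0.78, limma adjusted p = 0.141).

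Lbp (Entrez Gene 16803), the carrier of lipopolysaccharide in plasma, had values of 8.52, 8.40 and 8.38 in germ-free insulin arrays and 8.53, 8.31 and 8.40 in germ-free saline arrays. It had 8.82, 8.35 and 9.29 in colonized insulin arrays, and 9.12, 9.33 and 9.15 in colonized saline arrays. The 6 germ-free values were close together, the 3 colonized saline values were above all of them, and the colonized insulin values spread over the whole range, with animal 5 below most germ-free arrays.

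After saline Lbp was lower in germ-free mice, at -0.79 ± 0.18 (SE, limma adjusted p = 0.028), a 1.72-fold difference. After insulin the difference was -0.39 ± 0.18 (limma adjusted p = 0.237), and -0.63 without colonized insulin animal 5 (limma adjusted p = 0.0453). The mean over both treatments was -0.59 ± 0.13 (limma adjusted p = 0.00984). That call was kept in 12 of 12 fits with 1 array left out, and the saline call in 8 of 12. It was lost without colonized saline animal 1 (limma adjusted p = 0.051) and without germ-free saline animal 7 (0.0686), 8 (0.0959) or 9 (0.078).

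Hepatocyte and macrophage markers were set beside Lbp. The mean of the 10 hepatocyte markers ran at 6.48 to 8.09 in germ-free insulin, 7.93 to 9.43 in germ-free saline, 5.85 to 5.94 in colonized insulin and 5.68 to 10.34 in colonized saline arrays. For the mean difference 1 of 10 hepatocyte markers was called higher in germ-free mice and 0 lower, against 6.14% and 11.5% of all probe sets. All 10 estimates were above 0. With the hepatocyte mean as a covariate the mean difference of Lbp was -0.65 (limma adjusted p = 0.00922). The mean of 13 macrophage markers was 7.37 ± 0.07 in germ-free insulin, 7.56 ± 0.11 in germ-free saline, 7.52 ± 0.20 in colonized insulin and 7.68 ± 0.06 in colonized saline arrays (SD, n = 3 each). Of these 13, 5 (38.5%) were called lower in germ-free mice for the mean difference and 0 higher. With the macrophage marker mean as a covariate the difference of Lbp was -0.37 (limma adjusted p = 0.0486). With the negative control median as a covariate it was -0.09 (limma adjusted p = 0.997), and with the chromaffin mean -0.83 (limma adjusted p = 0.0925).

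Markers of 3 further cell types ran in the same direction as Lbp after saline, while those of fibroblasts did not after insulin. Of 4 measured Schwann and sustentacular markers (6 listed) 2 were called lower in germ-free mice for the mean difference and 0 higher. Over all probe sets these shares were 11.5% and 6.14%. After saline all 4 Schwann and sustentacular markers were below 0, with a median of -0.66. Their mean lay at 5.45 to 5.64 in germ-free insulin, 5.39 to 5.61 in germ-free saline, 5.53 to 5.83 in colonized insulin and 5.74 to 6.47 in colonized saline arrays. Of 7 endothelial markers 2 were called lower for the mean difference and 0 higher, with 6 of 7 below 0. Their mean lay at 9.74 to 9.84 in germ-free insulin, 9.74 to 9.91 in germ-free saline, 9.93 to 10.10 in colonized insulin and 9.90 to 10.10 in colonized saline arrays. Of 6 measured fibroblast markers (7 listed) limma called 0 after saline, with 1 at an unadjusted p under 0.05, and all 6 were below 0, with a median of -0.62. Their mean lay at 8.13 to 8.62 in germ-free saline arrays, against 8.04, 10.24 and 8.58 in colonized saline animals 1, 2 and 3. Animal 1 was thus below the germ-free range and animal 3 within it. The part of these markers in the result for Lbp was not tested.

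Tlr5 (Entrez Gene 53791), the flagellin receptor, had values of 5.43, 4.98 and 5.50 in germ-free insulin arrays and 4.89, 4.88 and 4.33 in germ-free saline arrays. It had 4.40, 4.67 and 4.56 in colonized insulin arrays and 4.52, 4.69 and 4.68 in colonized saline arrays. The 3 germ-free insulin arrays were above the 9 others, and the remaining groups overlapped. Only 1 of 12 arrays held Tlr5 above its negative control median, and 26.6 to 53.1% of the negative controls lay below it, so that its signal was at background on every array.

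After insulin Tlr5 was called higher in germ-free mice, at 0.76 ± 0.17 (SE, limma adjusted p = 0.0217), and after saline the estimate was 0.07 ± 0.17 (limma adjusted p = 0.843). The mean difference was 0.41 ± 0.12 (limma adjusted p = 0.0364). No fold is given, because neither group was above background. The mean of the negative control medians was 5.42 in germ-free insulin arrays and 5.41 in germ-free saline arrays, against 4.75 in colonized insulin and 4.75 in colonized saline arrays, so background was higher in germ-free arrays too. The call after insulin was kept in 9 of 12 fits with 1 array left out, and lost without colonized insulin animal 4 or without germ-free insulin animal 10 or 12 (limma adjusted p up to 0.0977). The mean call was kept in 4 of 12, those without animals 2, 5, 9 and 11, and in 5 of the 12 other settings.

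**Figure D2:**
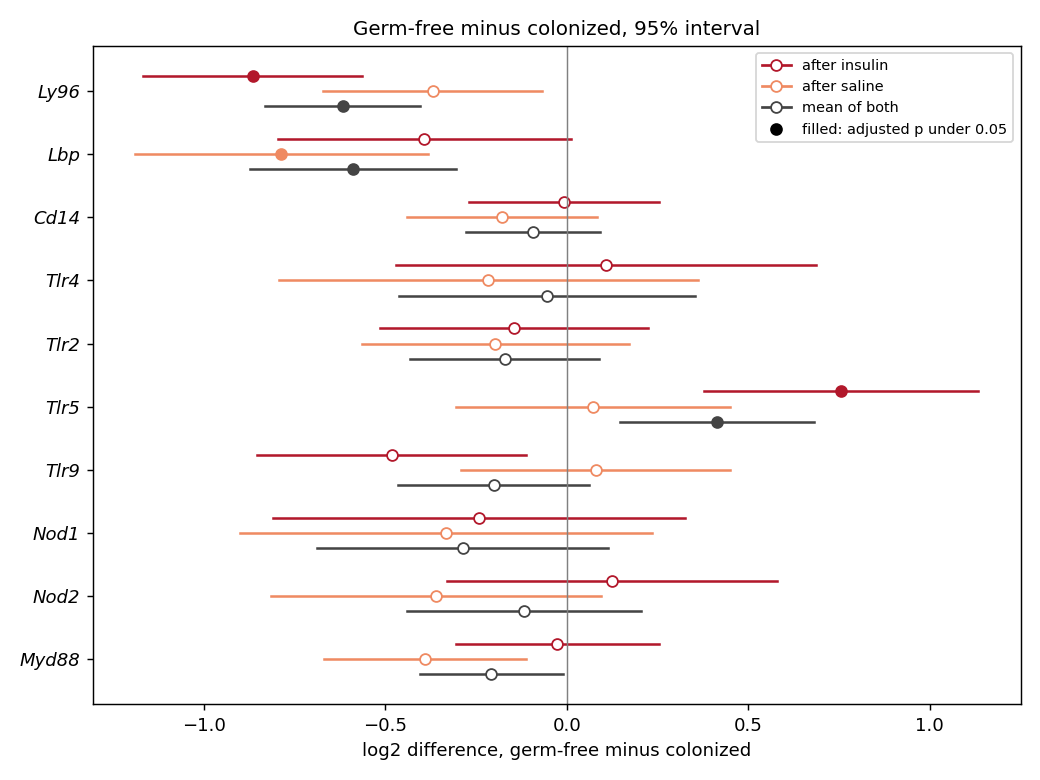
Germ-free minus colonized log2 difference (horizontal axis) of each gene after insulin, after saline and averaged, with points for limma estimates and lines for 95% intervals, filled where the adjusted p was under 0.05. The mean differences of Ly96 (-0.62), Lbp (-0.59) and Tlr5 (0.41) are filled.

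The other members of the lipopolysaccharide receptor complex did not pass the test between colonization states. Tlr4, its signalling receptor, ran from 5.73 to 6.93 over all 12 arrays, and the 4 groups overlapped. Its mean difference was -0.05 ± 0.19 (95% interval -0.46 to 0.35, limma adjusted p = 0.881). Cd14, the co-receptor that loads Tlr4, had a mean difference of -0.09 ± 0.08 (95% interval -0.28 to 0.09, limma adjusted p = 0.498). These intervals leave room for modest differences in either direction.

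Myd88 (Entrez Gene 17874), the adaptor shared by most Toll-like receptors, had values of 7.91, 7.88 and 7.85 in germ-free insulin arrays and 7.93, 7.84 and 7.79 in germ-free saline arrays. It had 8.15, 7.66 and 7.91 in colonized insulin arrays and 8.20, 8.41 and 8.12 in colonized saline arrays. After saline all 3 germ-free arrays were below all 3 colonized arrays, at a difference of -0.39 ± 0.13 that missed the threshold (limma adjusted p = 0.0881). After insulin the groups overlapped and the difference was -0.03 ± 0.13 (limma adjusted p = 0.94).

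Tlr9, the CpG DNA receptor of endosomes, had 4.99, 4.85 and 5.19 in germ-free insulin arrays, against 5.31, 5.23 and 5.94 in colonized insulin arrays. These groups did not overlap, and the difference of -0.48 ± 0.17 missed the threshold (limma adjusted p = 0.11). After saline its values were 5.41, 5.23 and 5.16 in germ-free arrays, against 5.25, 5.20 and 5.10 in colonized arrays. It was below the negative control median on all 6 germ-free arrays and above it on all 6 colonized arrays.

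Over the 10 genes, the germ-free and colonized arrays did not overlap for 3 after saline (Ly96, Lbp and Myd88), where 27.3% of all probe sets did not, and for 4 after insulin (Ly96, Tlr2, Tlr5 and Tlr9), against 31.8% of all probe sets. The cytosolic sensors Nod1 and Nod2 overlapped in every comparison. Nod1 ran from 5.59 to 6.85, both in colonized saline arrays, and its mean difference was -0.29 ± 0.18 (limma adjusted p = 0.318). It was -0.47 without colonized saline animal 1, with the lowest value (limma adjusted p = 0.0277). The mean difference of Nod1 was -0.57 with the hepatocyte mean as a covariate (limma adjusted p = 0.00666) and -0.78 with the adipocyte mean (limma adjusted p = 0.0131). No other alternative fit, with all arrays or with 1 left out, called that mean difference. Nod2 ran from 4.33 to 5.42, was below the negative control median on the 6 germ-free arrays and above it on the 6 colonized arrays, and had a mean difference of -0.12 ± 0.15 (limma adjusted p = 0.636).

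Insulin against saline gave a shared pattern for Cd14 and Tlr2 that did not pass the adjusted test. Cd14 had values of 8.00, 7.90 and 7.92 in germ-free insulin arrays, against 7.28, 7.45 and 7.57 in germ-free saline arrays. It had 7.90, 7.95 and 7.99 in colonized insulin arrays, against 7.63, 7.39 and 7.82 in colonized saline arrays. All 6 insulin arrays were above all 6 saline arrays.

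Tlr2 (Entrez Gene 24088) had values of 7.85, 7.80 and 7.82 in germ-free insulin arrays, against 7.35, 7.04 and 7.79 in germ-free saline arrays. It had 8.01, 7.89 and 8.01 in colonized insulin arrays, against 7.67, 7.33 and 7.77 in colonized saline arrays. Here too all 6 insulin arrays were above all 6 saline arrays, by a narrow margin in germ-free mice. Such a separation, in either direction, occurred in 0.557% of all probe sets.

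The mean insulin difference was 0.42 ± 0.08 for Cd14 (SE, 1.34-fold, unadjusted p = 0.000341, limma adjusted p = 0.0677). For Tlr2 it was 0.41 ± 0.12 (1.33-fold, unadjusted p = 0.00508, limma adjusted p = 0.221). The Cd14 difference was 0.50 ± 0.12 in germ-free mice (limma adjusted p = 0.139) and 0.33 ± 0.12 in colonized mice (limma adjusted p = 0.327). The Tlr2 difference was 0.43 ± 0.17 in germ-free mice (limma adjusted p = 0.486) and 0.38 ± 0.17 in colonized mice (limma adjusted p = 0.405). Cd14 crossed the threshold with array weights, where its mean difference was 0.34 (limma adjusted p = 0.0374), with dim probe sets left out (limma adjusted p = 0.037), and without colonized saline animal 3 (limma adjusted p = 0.0365).

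Few probe sets of any kind passed the test for insulin: 0.439% in germ-free mice, 0.153% in colonized mice and 0.419% for the mean of both. Among the sensor genes limma called 0 in each of these, while 4, 3 and 2 of the 10 had an unadjusted p under 0.05, against 8.31%, 11.8% and 10.3% of all probe sets. The insulin and saline arrays did not overlap for 3 genes in germ-free mice (Cd14, Tlr2 and Tlr5), where 19.7% of all probe sets did not, and for 3 in colonized mice (Cd14, Tlr2 and Ly96), against 14.1%. Of the macrophage markers, 11 of 13 had a mean insulin difference below 0, with a median of -0.17. Limma called 0 of them, with 2 at an unadjusted p under 0.05. The part of macrophage content in the differences of Cd14 and Tlr2 was not tested.

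**Figure D3:**
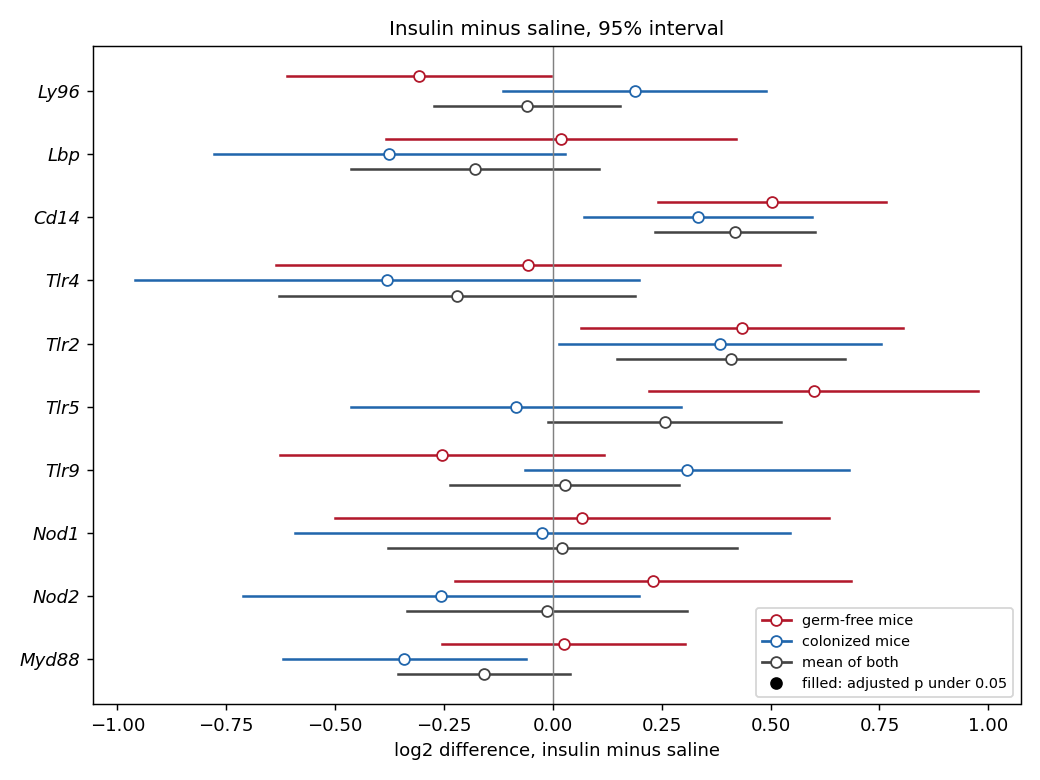
Insulin minus saline log2 difference (horizontal axis) of each gene in germ-free mice, in colonized mice and averaged, with points for limma estimates and lines for 95% intervals. No point is filled, since no adjusted p was under 0.05, and the mean intervals of Cd14 (0.23 to 0.60) and Tlr2 (0.15 to 0.67) lie above 0.

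Whether the insulin effect differed between the colonization states was tested as the germ-free effect minus the colonized effect. Limma called 0 of the 10 genes, against 0.0358% of all probe sets, and 3 had an unadjusted p under 0.05, against 9.97% of all probe sets. These were Tlr5 (0.68 ± 0.25, unadjusted p = 0.0164, limma adjusted p = 0.38), Ly96 (-0.50 ± 0.20, unadjusted p = 0.0265, limma adjusted p = 0.426) and Tlr9 (-0.56 ± 0.24, unadjusted p = 0.038, limma adjusted p = 0.472). For Cd14 and Tlr2 the difference of the effects was 0.17 ± 0.17 and 0.05 ± 0.24, with 95% intervals of -0.20 to 0.54 and -0.47 to 0.57.

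The RefSeq promoter windows, 250 bases before to 50 after a gene's start, covered 6 of the 10 genes in 7 windows of assembly GRCm38.p6. Those printed belong to Tlr5, called between the colonization states, to Tlr2, separated by insulin, and to Myd88, which carries the signal of both receptors. They lie at chr1:182954538-182954837 on the plus strand, chr3:83841559-83841858 on the minus strand and chr9:119339969-119340268 on the minus strand. Capitals mark matches to the motifs searched, and the sequences run 5′ to 3′ on the gene's strand.
Tlr5: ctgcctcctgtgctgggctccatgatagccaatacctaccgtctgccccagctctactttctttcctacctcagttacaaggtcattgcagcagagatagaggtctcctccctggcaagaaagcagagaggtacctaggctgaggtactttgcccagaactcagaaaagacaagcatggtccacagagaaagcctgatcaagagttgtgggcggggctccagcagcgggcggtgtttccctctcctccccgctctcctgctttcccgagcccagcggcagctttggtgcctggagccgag
Tlr2: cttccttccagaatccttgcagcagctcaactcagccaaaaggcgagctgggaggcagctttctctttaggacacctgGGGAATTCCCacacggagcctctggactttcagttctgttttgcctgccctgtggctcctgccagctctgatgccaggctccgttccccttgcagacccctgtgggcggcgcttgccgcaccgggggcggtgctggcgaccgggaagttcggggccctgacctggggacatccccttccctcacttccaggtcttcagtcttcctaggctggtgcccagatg
Myd88: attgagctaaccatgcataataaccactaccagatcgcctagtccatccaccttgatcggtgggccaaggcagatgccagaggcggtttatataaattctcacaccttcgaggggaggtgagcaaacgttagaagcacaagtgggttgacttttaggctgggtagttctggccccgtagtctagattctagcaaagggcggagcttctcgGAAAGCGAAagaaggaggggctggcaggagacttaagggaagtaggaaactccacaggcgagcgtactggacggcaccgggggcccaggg

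The motifs, searched on both strands, were kappaB (GGGNNTTCC), AP-1 (TGANTCA), the cyclic AMP element (TGACGTCA) and a paired interferon factor element (GAAANNGAA). Tlr2 held kappaB matches on both strands that overlap, at positions -172 and -171 from the start, and Nod2 held a kappaB match at -219, where 5.82% of 32851 windows of the same length held one. Myd88 held the interferon factor pair at -40 (8.56% of windows), and Tlr9 an AP-1 match at -58 (7.81% of windows). None of the 7 windows held the cyclic AMP letters (1.79% of windows), and those of Tlr5 and Nod1 held none of the 4 motifs. A match is a run of letters and was not tested as a binding site.

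Other genes of the sensing pathway were counted in 6 lists for the mean germ-free minus colonized difference. Over all probe sets 17.6% were called in that comparison, 6.14% higher and 11.5% lower, and within the lists 6.25 to 21.1% were called. Among 13 other Toll-like receptors and chaperones 0 rose and 1 fell, with a list median of -0.05. That gene was Unc93b1, which escorts nucleic acid sensing Toll-like receptors such as Tlr9 to endosomes, at -0.32 ± 0.09 (SE, limma adjusted p = 0.031). Tlr11, with the largest estimate that was not called, was at 0.41 ± 0.14 (limma adjusted p = 0.0677) and below the negative control median on all 12 arrays.

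Among 19 other microbial sensors measured of 25 listed, 2 rose and 2 fell, with a median of 0.01. The C-type lectin Clec4n, the receptor Dectin-2, was lower, at -0.53 ± 0.16 (limma adjusted p = 0.0407). It was below the negative control median on the 6 germ-free arrays and above it on the 6 colonized arrays, with 31.1 to 41.7% and 52.7 to 81.1% of the controls below it. Clec4e, the receptor Mincle, was called higher, at 0.33 ± 0.08 (limma adjusted p = 0.0113), on values near background. The share of negative controls below it was 49.9 to 58.5% on germ-free arrays and 56.2 to 70.8% on colonized arrays, so against each array's own controls it was not higher in germ-free mice. Pglyrp4, a peptidoglycan recognition protein, was called higher, by 0.31 ± 0.08 (limma adjusted p = 0.0184). The share of negative controls below Pglyrp4 was 63.1 to 70.6% on germ-free arrays and 73.8 to 79.4% on colonized arrays. Against each array's own controls it was thus not higher in germ-free mice either. The mitochondrial NOD-like protein Nlrx1 was lower, at -0.38 ± 0.11 (limma adjusted p = 0.0276). Naip5, a sensor of flagellin in the cytosol, had an estimate of 0.53 ± 0.20 that was not called (limma adjusted p = 0.089). It was at 0.85 ± 0.28 after saline (limma adjusted p = 0.0898) and 0.20 ± 0.28 after insulin (limma adjusted p = 0.747). Intestinal epithelium markers were also highest in germ-free saline arrays, and their part in the Naip5 estimate was not tested.

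Of 19 measured adaptors and kinases below the sensors (24 listed), 0 rose and 2 fell, with a median of -0.02. Irf7, the factor that drives type I interferon genes below Myd88, had 7.24, 7.57 and 7.35 in germ-free insulin arrays and 7.75, 7.68 and 7.79 in germ-free saline arrays. It had 8.78, 9.39 and 8.62 in colonized insulin arrays and 8.35, 7.90 and 8.14 in colonized saline arrays. All 6 germ-free arrays were below all 6 colonized arrays.

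The mean difference of Irf7 was -0.97 ± 0.13 (limma adjusted p = 0.000689), and after insulin -1.54 ± 0.18 (limma adjusted p = 0.00192). Tab1, a partner of the kinase Tak1, was lower, at -0.46 ± 0.10 (limma adjusted p = 0.00926). Tab3, another Tak1 partner, was called higher in germ-free mice after saline, at 0.55 ± 0.13 (limma adjusted p = 0.0255). The share of negative controls below Tab3 after saline was 95.5 to 97.2% on germ-free arrays and 97.0 to 97.6% on colonized arrays. Against each array's own controls Tab3 was thus not higher in germ-free mice. Ikbkg, the regulatory subunit of the IkB kinase, was at -0.50 ± 0.17 without a call (limma adjusted p = 0.0675).

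Of 13 measured inhibitors of sensor signalling (14 listed), 1 rose and 1 fell, with a median of 0.05. Dusp1, a phosphatase that switches off MAP kinases, was higher in germ-free mice, at 0.64 ± 0.12 (limma adjusted p = 0.00452), and Socs1, a brake on cytokine signalling, was lower, at -0.38 ± 0.09 (limma adjusted p = 0.0182). The share of negative controls below Dusp1 was 99.3 to 99.5% on germ-free arrays and 99.2 to 99.6% on colonized arrays, which overlap. Dusp1 was also the 1 inhibitor called for the mean insulin difference, at 0.67 ± 0.12 (limma adjusted p = 0.04).

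Of 18 measured NF-kB subunits and output genes (20 listed), 2 rose and 0 fell, with a median of -0.11. These were the subunit gene Rel, at 0.41 ± 0.13 (limma adjusted p = 0.046), and Ptgs2, the inducible cyclooxygenase, at 1.45 ± 0.33 (limma adjusted p = 0.0107). Rel had 8.56, 7.77 and 8.61 in colonized saline animals 1, 2 and 3. The share of negative controls below Rel was 97.4 to 98.1% on germ-free arrays and 96.8 to 98.7% on colonized arrays, which overlap. Ptgs2 was the 1 gene of this list called for the mean insulin difference. For that difference 15 of the 18 estimates were above 0, with a median of 0.24 against 0.01 over all probe sets. An unadjusted p under 0.05 was found for 10 of 18, against 10.3% of all probe sets. Among these 10 were Ccl5, which was lower after insulin (-0.19 ± 0.07), and Il6, which was above the negative control median on only 1 of 12 arrays.

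Among 16 acute phase and lipopolysaccharide handling genes, 1 rose and 0 fell, with a median of 0.10. Orm1, an acute phase glycoprotein of liver and fat, was higher by 0.86 ± 0.27 (limma adjusted p = 0.0442). The share of negative controls below Orm1 was 91.8 to 96.4% on germ-free arrays and 91.4 to 98.3% on colonized arrays, which overlap. Cd36, a scavenger receptor of fat and vessels that also works with Tlr2, was higher in germ-free mice after insulin, at 1.48 ± 0.39 (limma adjusted p = 0.0374). Hp, the haemoglobin carrier haptoglobin, was at 1.94 ± 0.79 without a call (limma adjusted p = 0.114), and ran from 5.70 to 11.26 within colonized saline arrays alone. Adipocyte markers moved with these genes, at a mean of 10.45 to 10.94 in germ-free insulin, 9.17 to 9.91 in germ-free saline, 5.86 to 8.92 in colonized insulin and 6.31 to 10.62 in colonized saline arrays. Of 7 measured adipocyte markers 2 were called higher in germ-free mice for the mean difference, where 6.14% of all probe sets were. After insulin 4 were called higher, where 7.77% of all probe sets were called in either direction. All 7 had an unadjusted p under 0.05 after insulin, against 22.5% of all probe sets, and the median was 3.64. None was called lower in either comparison, and the part of these markers in the results for Orm1 and Cd36 was not tested.

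**Figure D4:**
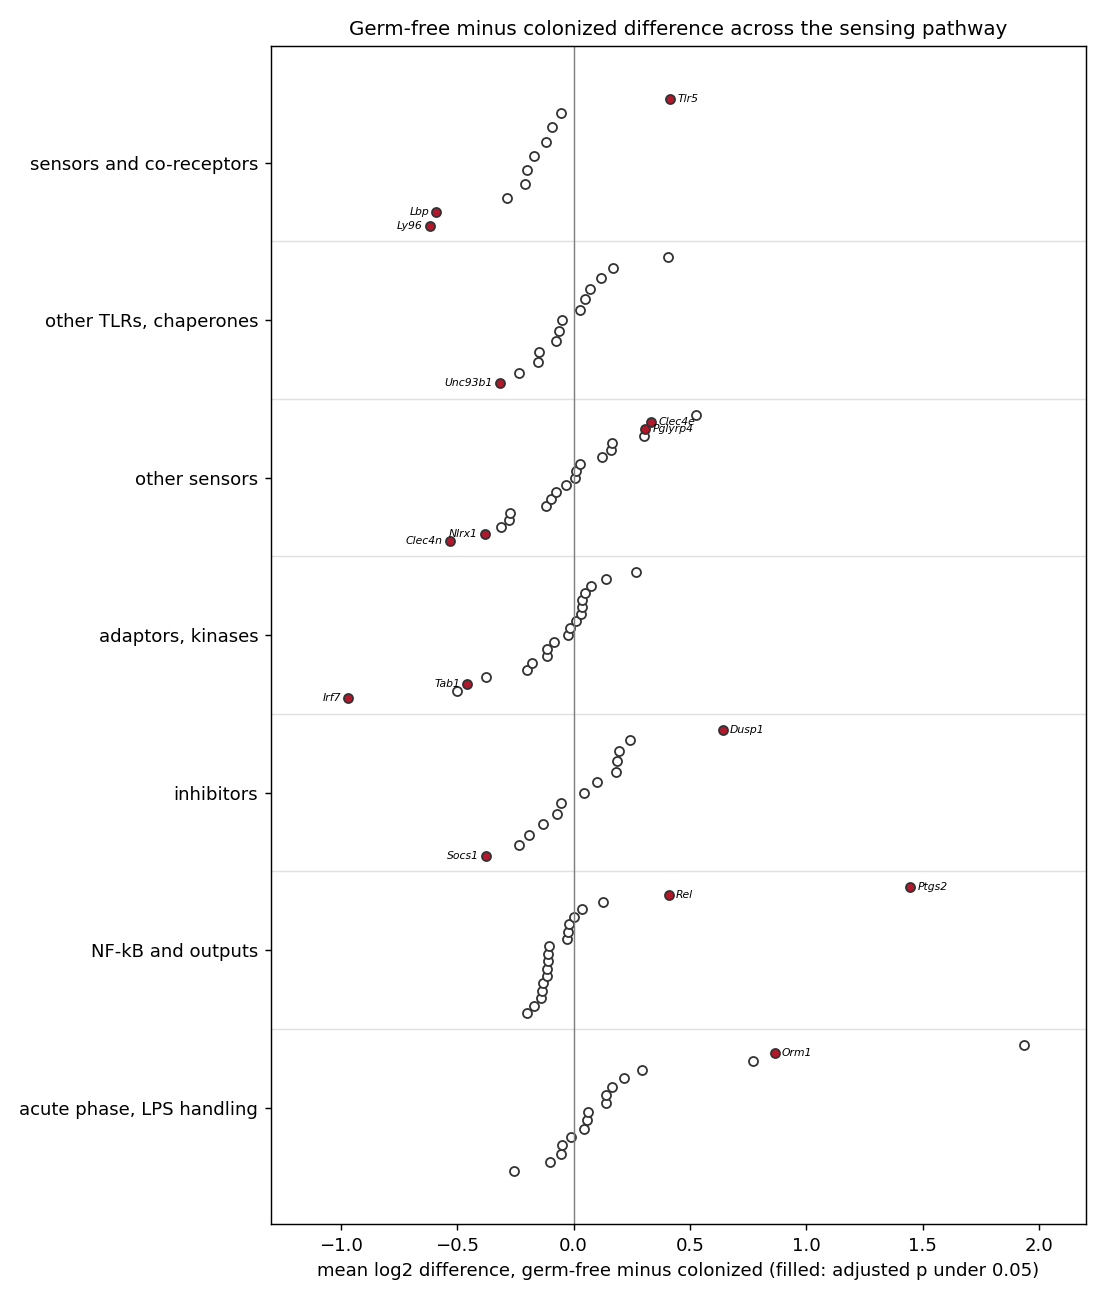
Mean germ-free minus colonized log2 difference (horizontal axis) of every measured gene of the 10 sensors and co-receptors (top) and of the 6 pathway lists, with 1 point a gene sorted within its list, filled and named where the limma adjusted p was under 0.05. The filled points lie on both sides of 0, with Irf7 (-0.97) lowest and Ptgs2 (1.45) highest.

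The genes whose pattern was most like that of a sensor gene were found by Pearson correlation over the 12 arrays for the 5 genes with the widest range. These are descriptions, and the arrays share their background, groups and makeup of cell types. Ly96 was most like Spire1 (0.96), Trp53i11 (0.96) and Ncam1 (0.95). Tlr4 was most like Dennd6a (0.93), Tnik (0.87) and Ptprb (0.86), and Tlr5 most like Cenpa (0.91), Grm3 (0.90) and Gbe1 (0.89). Nod1 was most like Tnnt2 (0.91), Olfr1275 (0.90) and Cdkn3 (0.90). Nod2 reached 0.83 with Olfr926, 0.80 with Ndst4 and 0.78 with Mtmr14.

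The marker means that the comparisons above were set beside are drawn by array.

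**Figure D5:**
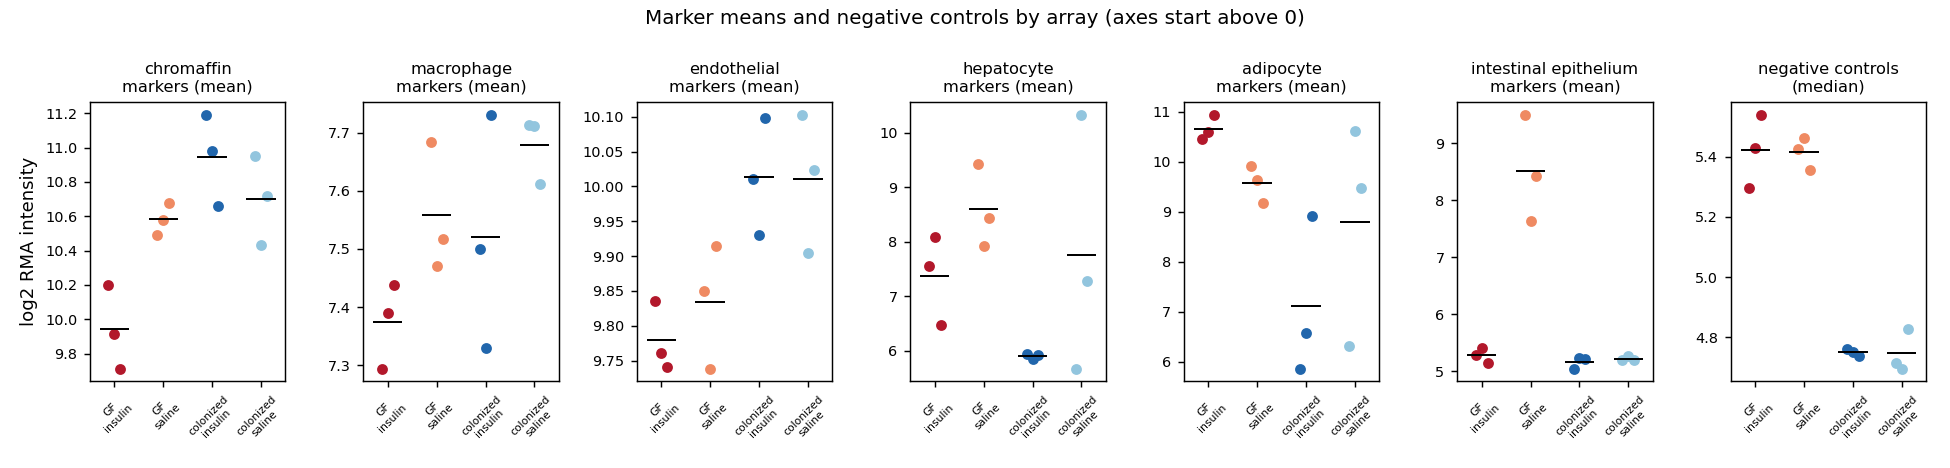
Mean log2 RMA intensity of 6 cell type marker lists and median of the negative controls (vertical axes) on every array, by group (GF, germ-free), with points for animals and lines for group means of 3. Chromaffin means are lowest in germ-free insulin arrays (9.71 to 10.20), and negative controls are higher in all 6 germ-free arrays (5.30 to 5.54) than in all 6 colonized arrays (4.70 to 4.83).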

How the data were processed

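Total RNA from dissected adrenal medulla was hybridized to Affymetrix arrays, 1 per animal, 3 animals in each of 4 groups. The authors deposited 1 table of log2 values, and the submitters' processing notes name RMA and limma without versions; whether the arrays of both colonization states were normalized together, and the build behind the annotation, are not given in the sources used here. The deposited log2 values were used without further change, and no 2 columns were identical. Of 28846 rows, 19572 had 1 symbol, 0 several and 9274 none; 5222 of the last are negative controls. All 19572 Entrez IDs were found in a RefSeq gene table of GRCm38.p6.

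One mean per group was fitted to all 12 arrays with limma 3.58.1 in R 4.3.3 (lmFit, eBayes, 8 residual and 4.08 prior degrees of freedom), with 7 contrasts. P-values were adjusted by Benjamini-Hochberg over 19572 probe sets and called under 0.05. SE and 95% intervals come from that fit. Marker means used each gene's probe set with the highest mean. The fit was tested on simulated data of independent normal noise around each probe set's mean. These data held no shift in background or cell types between groups, so that test could not address such shifts. Figures were drawn with matplotlib 3.10.9 in Python 3.11.15.

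The 10 genes and all lists were chosen with earlier results of these data known. All 10 are named, and of each pathway list the genes called in any contrast and the 2 with the largest absolute mean germ-free difference. Alternatives were 3 sets of probe sets, the compared groups alone, a second quantile normalization, median centring, eBayes with trend and robust estimation, array weights, macrophage, hepatocyte or adipocyte marker means as covariates, and leaving out each array. Covariates for chromaffin markers and negative controls, and centring on probe sets with a symbol, were chosen after seeing the data.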

Additional observations from a re-analysis of the deposited data

How the results depend on the processing

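The number of sensor genes called moved by over 1.5 times, in at least 1 comparison, under 7 of the 14 alternatives that kept all arrays. With dim probe sets left out (mean of at least 7.71, leaving 7068 probe sets and 4 of the 10 genes), 2 were called between germ-free and colonized mice after saline, 1 after insulin and 1 for the mean insulin difference. Median centring gave 3 after saline and 6 for the mean difference (Ly96, Lbp, Myd88, Tlr2, Tlr9 and Cd14), array weights 1 for insulin in germ-free mice and 1 for the mean insulin difference, the hepatocyte covariate 3 after saline, and the adipocyte covariate 0 after insulin. The chromaffin covariate left 0 after insulin and 0 for the mean difference, and the negative control covariate 0 in each of the 3 germ-free comparisons, where the marker or control means differ between the groups as well. With negative controls as a covariate the sign turned for Ly96 (0.71 after saline, 0.22 after insulin, 0.46 for the mean), for Tlr5 (-0.15 for the mean) and for Myd88 (0.061 for the mean). The cause of these changes was not tested.

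Leaving out single arrays gave 0 to 1 genes after saline, 1 to 3 after insulin (3 without colonized insulin animal 5, where Lbp was called too), 0 to 1 for insulin in germ-free mice and 0 to 1 for the mean insulin difference. The other 3 counts stayed within 1.5 times. Of the 48 gene differences with an unadjusted p of 0.05 or more, 36 changed sign under some alternative and 7 were called under at least 1.

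Over all probe sets the mean difference gave 3454 calls, against 7030 with all rows, 7361 with median centring, 5535 with array weights, 1500 with the adipocyte covariate, 211 with chromaffin markers and 0 with negative controls. Scaling set the balance: 34.8% of calls were higher in germ-free mice, against 21.7% after a second quantile normalization, 7.50% after median centring and 57.1% after centring on probe sets with a symbol. The median difference of all probe sets, -0.03, became -0.11, -0.20 and 0.04. Under these 3 scalings the mean difference of Ly96 was -0.63, -0.78 and -0.54, that of Lbp -0.55, -0.75 and -0.52, and that of Tlr5 0.22, 0.25 and 0.49, where only the last passed the threshold. No paired analysis was possible because no animal number is shared between groups. Each gene had 1 probe set, so no other could be tried.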
